A study of Mus musculus with 12 samples.

Results

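Keratins are the intermediate filament proteins of epithelial cells, and the RNA of every listed keratin gene was examined in mouse colorectal tissue. A gene was taken as a member when its symbol was Krt followed by a number, with or without a letter a or b, which gave 53 of the 18514 genes listed. The members were sorted by their known site of expression into 5 simple keratins (Krt7, Krt8, Krt18, Krt19 and Krt20), 16 squamous keratins, 23 hair keratins and 9 that were placed on neither side. Of the 53, 39 passed the filter on low counts and were tested, which included all 5 simple, 13 squamous and 15 hair keratins and 6 of the others.

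The 12 libraries came from 12 male C57BL/6 mice, 1 library per mouse and 3 mice in each of 4 groups. Ctrl mice received ordinary water and no swimming. Ctrl_Swim mice swam for up to 90 min per day. Model mice were given the carcinogen azoxymethane (AOM), 10 mg/kg, by a single injection and drank 2% dextran sulfate sodium (DSS), which injures the colon lining, in 3 cycles. Model_Swim mice received the same AOM and DSS and also swam for up to 90 min per day. All mice were 4 weeks old at purchase, and mice that did not swim were placed in shallow water. The colon was taken from the distal cecum to the rectum, and the sources used here do not say which stretch of it, or how much tumour, went into each library. Values of a group are given below in the order of its library numbers, which are 1, 2 and 3, or 2, 3 and 4 in Ctrl_Swim.

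Every keratin filament is built from pairs of an acidic type I and a basic type II keratin, and the pair tells where in the body a cell belongs. Simple epithelium, a single layer such as the colon lining, uses Krt8 with Krt18, Krt19 and Krt20. Stratified squamous epithelium uses Krt5 with Krt14 in its dividing basal layer and then switches to Krt1 with Krt10 where it cornifies, as in skin, or to Krt4 with Krt13 where it stays moist, as in mouth and oesophagus. Krt6a, Krt6b, Krt16 and Krt17 are switched on in wounded or activated keratinocytes. Hair follicles have their own keratins in the inner root sheath and in the hair shaft. In the mouse bowel the simple epithelium of the rectum gives way to stratified epithelium at the anal canal.

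Total counts were between 17256953 and 19451055 per library, so that 3 counts, the limit that a count of 0 allows, were 0.153 to 0.172 CPM (counts scaled to library size, after TMM scaling for library composition). This limit covers counting error only. Markers of colon epithelium were present throughout, with Lgals4 between 2349 and 3456 CPM in all 12 libraries. Their level was not equal, since 12 such markers summed to 6963, 8518 and 11987 CPM in Model and to 13014 CPM or more elsewhere. The sum of 14 pancreatic acinar genes was 48059 CPM in Model 1 and 23516 CPM in Model 3 and at most 212 CPM in the others. Model 3 was also lowest in markers of distal colon and rectum, with Hoxb13 at 7.57 CPM against 53.2 CPM or more in every other library. Counts of calls are given with and without Model 1 and Model 3.

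Summed over its members, the simple class was the most abundant class of keratins in every library. By mean FPKM, which divides by transcript length and so allows genes to be compared, the order was Krt8 (2291), Krt19 (1757), Krt20 (431), Krt18 (317) and Krt7 (99.4), and these were the 5 highest of all keratins. Krt8, the type II partner of the simple pair, and Krt19, a short type I keratin, together made up 83.4%, 83.3% and 83.7% of all keratin FPKM in the Ctrl libraries. The FPKM of Krt19 was 0.716 to 0.833 of that of Krt8 over the 12 libraries, and that of Krt18, the classical partner of Krt8, was 0.113 to 0.174 of it. Summed over the 5 simple keratins, the ratio of type I to type II FPKM was 0.990 to 1.09 in all 12 libraries.

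Against Ctrl, 4 of the 5 simple keratins fell in Model mice by a modest amount and Krt7 did not pass the test. Krt8 was at 5480.2, 4719 and 5526 CPM in Ctrl, 4963, 3981 and 3738 CPM in Ctrl_Swim, 3320.0, 3251 and 3324 CPM in Model and 3834, 3773 and 3990.1 CPM in Model_Swim. All 3 Model libraries lay below all 3 Ctrl libraries (log2 fold change -0.67 ± 0.10 (SE), adjusted p = 0.00147). For Krt19, the levels were 3076, 2780.3 and 3267 CPM in Ctrl, 3009.6, 2602 and 2366 CPM in Ctrl_Swim, 2135, 2001 and 1889.6 CPM in Model and 2260.0, 2207 and 2386 CPM in Model_Swim. Krt19 also fell without overlap between Model and Ctrl (log2 fold change -0.60 ± 0.10 (SE), adjusted p = 0.00187). Krt18 gave 625, 495 and 566 CPM in Ctrl, 444, 361 and 329 CPM in Ctrl_Swim, 445, 439.8 and 374 CPM in Model and 454, 411 and 409 CPM in Model_Swim, and its Model libraries again lay below its Ctrl libraries (log2 fold change -0.42 ± 0.12 (SE), adjusted p = 0.0240). Krt20, which marks differentiated cells at the surface of the intestine, was at 932, 881 and 1014 CPM in Ctrl, 1017, 748 and 720.2 CPM in Ctrl_Swim, 577, 629.5 and 839.5 CPM in Model and 969, 865 and 922 CPM in Model_Swim. Model 3 stood nearer to Ctrl than Model 1 and Model 2 did, without overlap (log2 fold change -0.46 ± 0.15 (SE), adjusted p = 0.0399). Krt7, a keratin of ducts and glands, was at 147, 149 and 165 CPM in Ctrl, 131, 131 and 114 CPM in Ctrl_Swim, 216, 153 and 151 CPM in Model and 166, 188 and 180.3 CPM in Model_Swim, with Model 1 above all other libraries and the other Model libraries within the Ctrl range (log2 fold change 0.17 ± 0.13 (SE), adjusted p = 0.307). In tissue RNA, fewer cells of a type and less RNA per cell cannot be told apart.

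None of these decreases reached the study's fold cutoff of 0.5, so they were counted by the adjusted p-value alone. Of all 15484 genes tested, 16.2% were lower in Model by the adjusted p-value alone and 23.3% were lower without overlap, against 4 of 5 simple keratins by either measure. Krt8 and Krt19 kept an adjusted p under 0.05 in 20 of 20 alternative fits, Krt18 in 13 of 20 (highest adjusted p = 0.162, with the acinar list as a covariate) and Krt20 in 8 of 20 (highest adjusted p = 0.351, with the squamous partner list as a covariate). For Krt18 the adjusted p by edgeR rose above 0.05 without Ctrl 1 (adjusted p = 0.109), Ctrl 3 (0.0765) or Model 3 (0.0645). It also did so with Ctrl and Model alone (0.0542) and with the squamous partner list as a covariate (0.101). The same held without Model 1 and Model 3 together, where the log2 fold change was -0.37 with Model 2 as the only Model library. For Krt20 the adjusted p by edgeR rose above 0.05 without Ctrl 1 (adjusted p = 0.0845), Ctrl 2 (0.0661), Ctrl 3 (0.121), Model 1 (0.108) or Model 2 (0.119). It also did so without Model_Swim 1 (0.0530), Model_Swim 2 (0.0532) or Model_Swim 3 (0.0550). So it did under the replicate block (0.0624), with Ctrl and Model alone (0.0660) and with the acinar list as a covariate (0.138). Epcam, an adhesion molecule of the same epithelial cells, was at 1469 CPM or lower in Model and at 1508 CPM or higher in Ctrl (log2 fold change -0.23 ± 0.09, adjusted p = 0.0777). The ratio of summed simple keratins to Epcam was 5.99 to 6.56 in Ctrl, 5.81 to 6.25 in Ctrl_Swim, 4.56 to 5.09 in Model and 5.16 to 5.30 in Model_Swim.

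**Figure D1:**
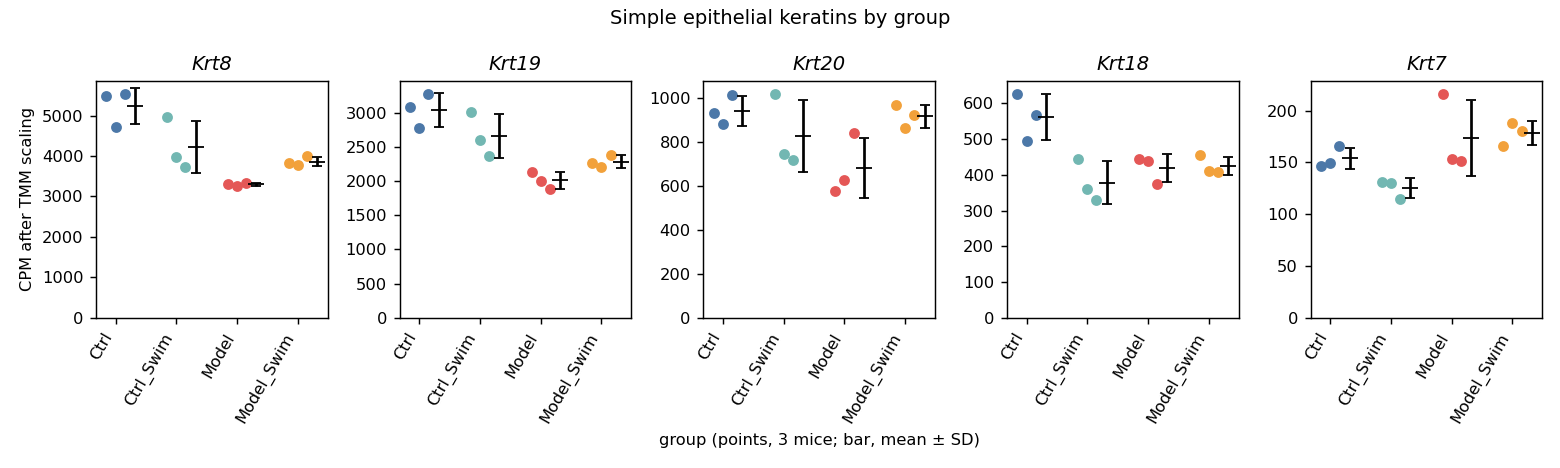
CPM of each simple keratin in the 4 groups; each point is 1 mouse and the bar at the right of each group is the mean ± SD of 3 mice, with the vertical axis from 0. For Krt8 the Model libraries sit at 3251 to 3324 CPM, below all Ctrl libraries at 4719 to 5526 CPM, while Krt7 overlaps.

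In the comparisons with swimming, 0 of 5 simple keratins were called. Between Model_Swim and Model, Krt8, Krt19 and Krt20 were higher in all 3 Model_Swim libraries than in all 3 Model libraries, but none passed the test (adjusted p = 0.371, 0.450 and 0.275 by edgeR). Over all genes, 8.48% were higher without overlap in that comparison. Between Ctrl_Swim and Ctrl, Krt18 was lower without overlap, as were 14.9% of all genes, and missed the threshold (log2 fold change -0.57 ± 0.12 (SE), adjusted p = 0.0585). Krt7 was the only simple keratin that differed between Model_Swim and Ctrl_Swim by the adjusted p-value (log2 fold change 0.51 ± 0.13 (SE), adjusted p = 0.0444), where 3.49% of all genes were higher by the same measure.

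Squamous and hair keratins made up at most 0.254% of keratin CPM in Ctrl mice and up to 25.4% in single mice of other groups. The summed squamous keratins were at 17.8, 12.7 and 12.6 CPM in Ctrl, 97.01, 14.1 and 855 CPM in Ctrl_Swim, 1043, 2065 and 10.9 CPM in Model and 149.7, 1156 and 1175 CPM in Model_Swim. In 7 libraries the sum exceeded every Ctrl library, while Model 3 lay below every Ctrl library. The summed hair keratins were at 8.39, 7.79 and 6.81 CPM in Ctrl, 13.04, 6.44 and 49.4 CPM in Ctrl_Swim, 254, 173 and 5.79 CPM in Model and 15.4, 22.1 and 12.8 CPM in Model_Swim. Here Model 1 and Model 2 stood far above the rest, and Ctrl_Swim 4 came next. The Model_Swim libraries were below Ctrl_Swim 4 although 2 of them exceeded it in squamous keratins.

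Set against the simple keratins library by library, squamous and hair keratins together made up 0.183% to 0.254% of keratin CPM in Ctrl. In Ctrl_Swim the shares were 1.13%, 0.262% and 10.9%, in Model 15.98%, 25.4% and 0.252%, and in Model_Swim 2.09%, 13.4% and 13.04%. Per transcript length, as a share of keratin FPKM, the highest were 21.4% in Model 2, 12.8% in Model 1, 11.5% in Model_Swim 2, 11.2% in Model_Swim 3 and 8.60% in Ctrl_Swim 4. The log2 ratio of squamous and hair to simple keratin CPM was -8.83 ± 0.238 in Ctrl, -6.01 ± 2.81 in Ctrl_Swim, -4.17 ± 3.88 in Model and -3.64 ± 1.64 in Model_Swim (mean ± SD, n = 3). Only Ctrl was tight, and the ranges of the other 3 groups overlapped one another. Without Model 1 the Model mean was -5.08, without Model 2 it was -5.50 and without Model 3 it was -1.95. Without Ctrl_Swim 4 the Ctrl_Swim mean was -7.51.

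**Figure D2:**
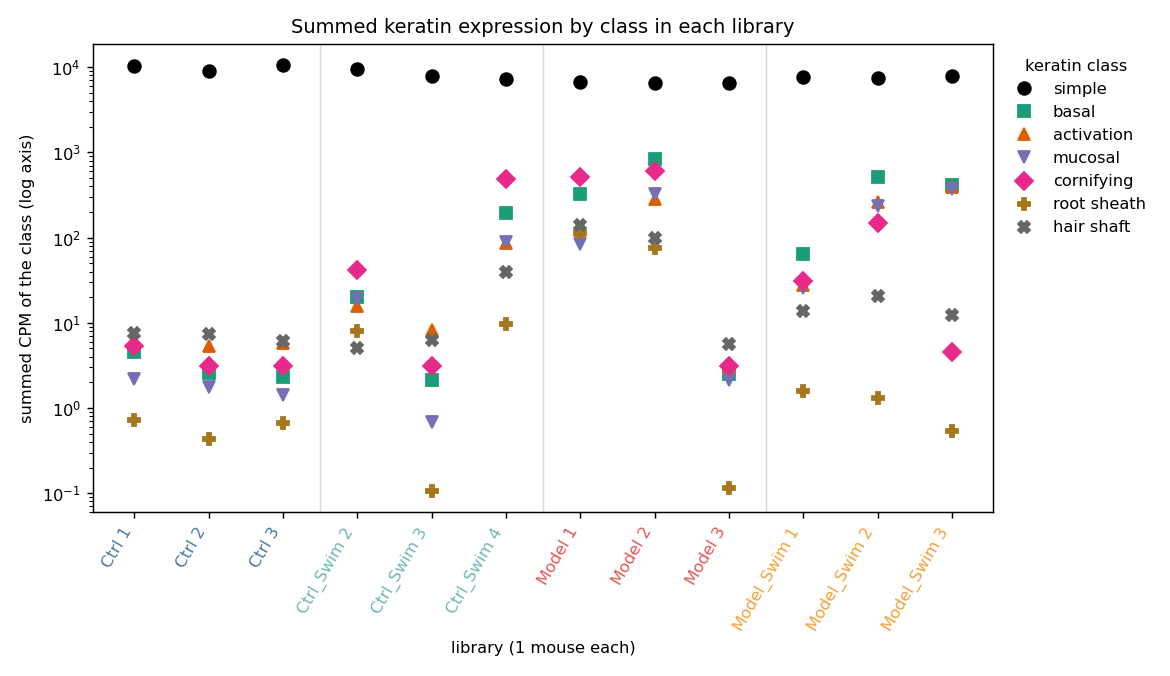
Summed CPM of 7 keratin classes (log axis) in each of the 12 libraries, 1 mouse each, coloured by group on the horizontal axis. Simple keratins stay between 6475 and 10539 CPM, while the squamous and hair classes are high in Ctrl_Swim 4, Model 1 and Model 2. Root sheath keratins are weaker in Ctrl_Swim 4, at 9.60 CPM, close to Ctrl_Swim 2 at 7.94 CPM. In Model_Swim 2 and 3 the squamous classes are high too, except cornifying keratins in Model_Swim 3, at 4.56 CPM, and in Model 3 all are low.

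In Model mice against Ctrl, 23 of the 39 tested keratins were called higher (edgeR's quasi-likelihood test, adjusted p under 0.05 and fold change over 2) and 0 lower, where 6.21% of all genes tested were called higher and 1.22% lower. Those 23 were 10 of 13 squamous keratins, 12 of 15 hair keratins and Krt90, and 4 keratins were lower by the adjusted p-value alone, as given above. Some hair keratins, such as Krt33a, Krt33b and Krt34, had counts almost only in Model 1, Model 2 and Ctrl_Swim 4. They passed the filter only through those libraries. Of the called squamous keratins, Krt6a, Krt6b and Krt77 had at most 9 counts in every Ctrl library and in Model 3. They too passed only through libraries where they were high. The shares of tested hair and squamous keratins that were called are thus partly set by the filter. At an unadjusted p under 0.05 there were 35 of 39, against 45.2% of all genes. In all 23, Model 1 and Model 2 lay above every Ctrl library. In 16 of the 23, Model 3 did not lie above the highest Ctrl library, and only 7 of them had no overlap between the groups, where 20.9% of all genes were higher without overlap. The median log2 fold change was 6.93 over the 13 squamous keratins and 0.01 over all genes tested. Raising Ctrl means to the 3-count limit per library gave medians of 6.37 over the 13 squamous keratins, 3 of them raised, and 4.96 over the 15 hair keratins, 11 of them raised.

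The number of calls depended on single libraries. Leaving out Model 3 raised it to 39 of 47 keratins then tested, where the calls over the whole table rose from 1150 to 1679 genes. The filter then also let in keratins high only in Model 1 and Model 2, such as Krt2. The number of calls fell to 11 of 39 when Model 1 was left out, with 943 genes called over the whole table. It fell to 5 of 39 when Model 2 was left out, with 919. Without Model 1 the calls that stayed were Krt5, Krt6a, Krt6b, Krt13, Krt14, Krt25, Krt34, Krt36, Krt71, Krt75 and Krt83, and the other 12, Krt1, Krt4 and Krt10 among them, lost their call. Without Model 2 they were Krt25, Krt36, Krt71, Krt83 and Krt90. Leaving out Ctrl 1, Ctrl 2 or Ctrl 3 gave 3, 4 and 3 calls of 47 tested, with 879, 718 and 778 genes called over the whole table. Without Model 1 and Model 3 together it was 32 of 47, with 1291 genes called over the whole table and with Model 2, where acinar genes summed to 183 CPM, as the only Model library. With the mean log2 CPM of the acinar genes as a covariate, 13 of the 23 remained and no other was called. In that fit 789 genes were called over the whole table, against 1150 without the covariate. With the squamous partner genes, described below, as a covariate, 0 keratins were called, while 439 genes were called over the whole table. The partner genes were high in the same libraries as the squamous keratins, so this covariate takes up the same signal. The loss of calls was thus largely fixed in advance. DESeq2, the study's tool, called 30, of which 21 were among the 23, with 1369 genes called over the whole table. A fit of the Ctrl and Model libraries alone, in which 21 keratins were tested, called 8, with 840 genes called over the whole table.

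Basal keratins mark the dividing layer of stratified epithelium. Krt5 was at 1.10, 0.763 and 1.04 CPM in Ctrl, 8.05, 0.638 and 93.9 CPM in Ctrl_Swim, 168, 462 and 1.15 CPM in Model and 28.2, 281 and 204 CPM in Model_Swim. It was highest in Model 2 and at most 1.15 CPM in every Ctrl library, Ctrl_Swim 3 and Model 3 (log2 fold change 7.75 ± 2.17 (SE), adjusted p = 0.0198). Krt14, its type I partner, was at 1.99, 1.20 and 0.769 CPM in Ctrl, 9.97, 1.22 and 81.6 CPM in Ctrl_Swim, 139, 343 and 1.15 CPM in Model and 31.9, 212 and 203 CPM in Model_Swim. The same libraries were high for Krt14 (log2 fold change 6.93 ± 1.93 (SE), adjusted p = 0.0194), and the FPKM ratio of Krt14 to Krt5 was 0.945 to 1.58 in the 7 libraries whose squamous sum exceeded Ctrl. Krt15, a basal keratin also known from the hair follicle bulge, was at 1.43, 0.600 and 0.495 CPM in Ctrl, 2.19, 0.266 and 21.6 CPM in Ctrl_Swim, 16.1, 33.9 and 0.229 CPM in Model and 5.01, 17.5 and 3.50 CPM in Model_Swim. It was not called (log2 fold change 4.30 ± 1.60 (SE), adjusted p = 0.0590), and in Model_Swim 3 it stayed at 3.50 CPM although Krt5 was at 204 CPM and Krt14 at 203 CPM there.

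Each of the 4 activation keratins was highest in a Model_Swim library. Krt6a was at 0.166, 0.273 and 0.495 CPM in Ctrl, 3.45, 0.266 and 24.9 CPM in Ctrl_Swim, 67.96, 174 and 0.287 CPM in Model and 14.9, 139 and 208 CPM in Model_Swim. Its highest value was that of Model_Swim 3 (log2 fold change 7.99 ± 2.21 (SE), adjusted p = 0.0189). Krt6b was at 0.166, 0.109 and 0.110 CPM in Ctrl, 1.64, 0.160 and 9.91 CPM in Ctrl_Swim, 15.2, 63.2 and 0.0573 CPM in Model and 4.07, 46.6 and 163 CPM in Model_Swim, and it too was called (adjusted p = 0.0332). Between 29.5% and 30.1% of the 100-base windows of the Krt6a and Krt6b transcripts are identical in the other, so the counts of each gene are uncertain. Krt17, which hair follicles and activated keratinocytes make, was at 5.13, 4.85 and 4.95 CPM in Ctrl, 10.8, 7.77 and 48.4 CPM in Ctrl_Swim, 37.6, 47.7 and 2.81 CPM in Model and 8.80, 75.6 and 13.2 CPM in Model_Swim. It was the one squamous keratin near 5 CPM in all Ctrl libraries and was not called (log2 fold change 2.56 ± 1.08 (SE), adjusted p = 0.0873). Krt16 reached 116 counts at most, in Model_Swim 3, and was not called (adjusted p = 0.163).

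Keratins of moist stratified linings were highest in Model 2 and Model_Swim 3. Krt13 was at 0.497, 0.327 and 0.605 CPM in Ctrl, 7.23, 0.266 and 38.2 CPM in Ctrl_Swim, 67.7, 243 and 0.631 CPM in Model and 17.1, 196 and 296 CPM in Model_Swim. All 3 Model libraries exceeded all Ctrl libraries, Model 3 by a narrow margin (log2 fold change 7.75 ± 2.19 (SE), adjusted p = 0.0208). Krt4, its type II partner, was at 0.662, 0.818 and 0.275 CPM in Ctrl, 11.4, 0.106 and 45.6 CPM in Ctrl_Swim, 11.9, 75.4 and 0.229 CPM in Model and 6.22, 34.04 and 71.4 CPM in Model_Swim, and was called close to the threshold (log2 fold change 5.62 ± 1.98 (SE), adjusted p = 0.0488). Krt78, a keratin of upper layers, was lower, with 1.05, 0.600 and 0.550 CPM in Ctrl, 0.493, 0.319 and 4.50 CPM in Ctrl_Swim, 5.19, 6.64 and 1.26 CPM in Model and 2.48, 3.48 and 2.54 CPM in Model_Swim, and its Model and Ctrl libraries did not overlap (log2 fold change 2.57 ± 0.89 (SE), adjusted p = 0.0474).

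Cornifying keratins had a different peak. Krt10 was at 3.42, 2.51 and 2.69 CPM in Ctrl, 23.3, 2.82 and 259.8 CPM in Ctrl_Swim, 252, 333 and 2.35 CPM in Model and 16.8, 79.2 and 3.55 CPM in Model_Swim. Ctrl_Swim 4, Model 1 and Model 2 stood within a narrow range of one another, and Model_Swim 3 lay at 3.55 CPM, close to the Ctrl libraries (log2 fold change 6.09 ± 1.94 (SE), adjusted p = 0.0340). Krt1, the partner of Krt10, was at 1.93, 0.436 and 0.330 CPM in Ctrl, 17.97, 0.160 and 204 CPM in Ctrl_Swim, 241, 241 and 0.631 CPM in Model and 13.9, 65.7 and 0.901 CPM in Model_Swim (log2 fold change 7.48 ± 2.45 (SE), adjusted p = 0.0378). In Model_Swim 3 the counts were 17 for Krt1 and 67 for Krt10, against 3845 for Krt5 and 5586 for Krt13 in the same library. Krt77, an epidermal keratin, had 0, 2 and 0 counts in Ctrl, 4, 1 and 369 in Ctrl_Swim, 186, 567 and 2 in Model and 1, 71 and 2 in Model_Swim (adjusted p = 0.0462). Krt2, a keratin of the uppermost living layers of the epidermis, failed the filter, with 174 counts in Model 1, 166 in Model 2 and at most 4 elsewhere.

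The make-up of the squamous keratins differed between mice of one group. Cornifying keratins made up 56.5% of squamous keratin CPM in Ctrl_Swim 4, 49.1% in Model 1, 43.03% in Ctrl_Swim 2, 29.7% in Model 2, 20.6% in Model_Swim 1, 12.9% in Model_Swim 2 and 0.388% in Model_Swim 3. Mucosal keratins went from 8.13% in Model 1 to 31.5% in Model_Swim 3 among the same libraries. The ratio of cornifying to mucosal keratin CPM was 5.48 in Ctrl_Swim 4 and 6.04 in Model 1, and 0.0123 in Model_Swim 3. In the Model_Swim libraries it was 1.19, 0.638 and 0.0123. No test was made on these shares, since each group holds 3 libraries of unlike level.

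**Figure D3:**
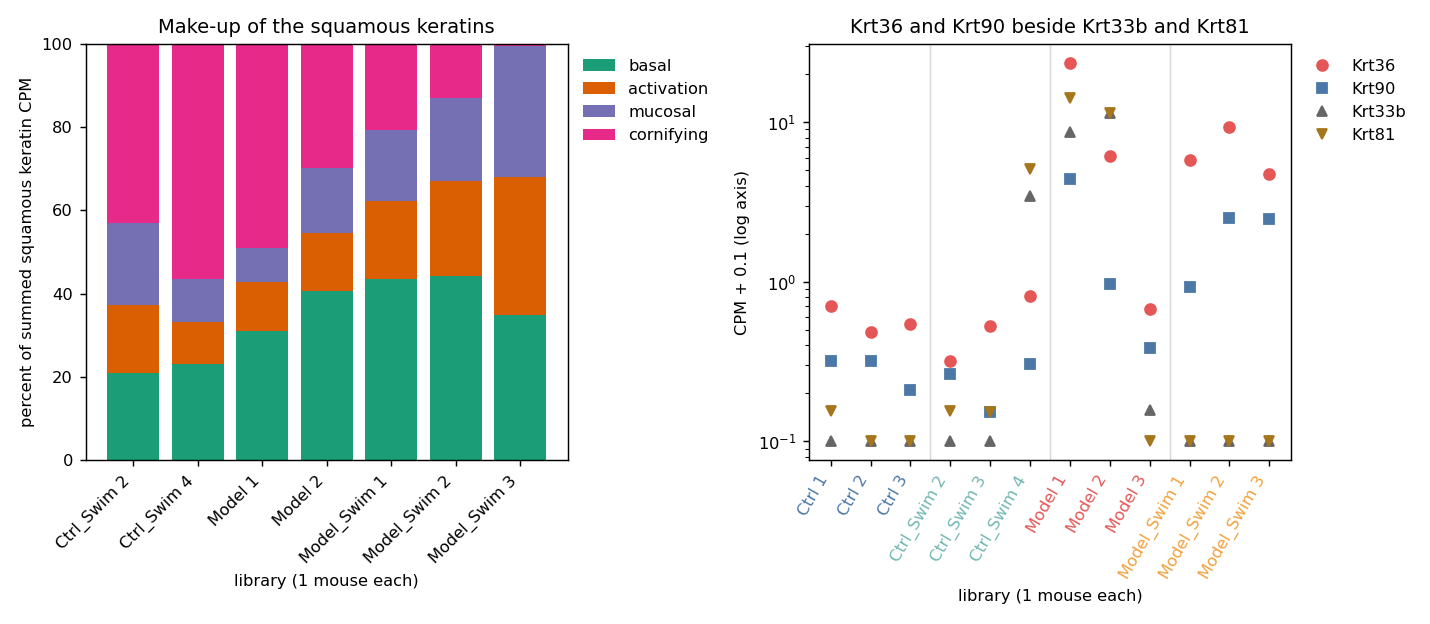
Left, the share (percent) of 4 classes in the summed squamous keratin CPM of the 7 libraries whose sum exceeded every Ctrl library, with cornifying keratins from 56.5% in Ctrl_Swim 4 to 0.388% in Model_Swim 3. Right, CPM + 0.1 (log axis) of 4 single keratins in the 12 libraries, 1 mouse each; Krt33b and Krt81 are high in Ctrl_Swim 4, Model 1 and Model 2, while Krt36 and Krt90 are high in Model 1, Model 2 and all Model_Swim libraries.

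Hair keratins were high in few libraries. Model 1 was the highest library for 22 of the 23, which included 8 of 8 root sheath and 14 of 15 hair shaft keratins, and Krt33b was the exception. In 17 of the 23 the top 3 libraries were Model 1, Model 2 and Ctrl_Swim 4, and 9 of the 23 had a count of 0 in all Ctrl libraries. Since many had 3 counts or fewer over the 3 Ctrl libraries, counts are given for them in place of fold changes.

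Root sheath keratins build the layer that moulds the growing hair. Krt71, a type II keratin of the inner root sheath, had 3, 0 and 3 counts in Ctrl, 76, 0 and 65 in Ctrl_Swim, 935, 562 and 0 in Model and 13, 1 and 0 in Model_Swim (adjusted p = 0.0143). Krt25, a type I keratin of the same sheath, had 0, 1 and 0 counts in Ctrl, 21, 0 and 27 in Ctrl_Swim, 459, 391 and 1 in Model and 5, 0 and 0 in Model_Swim (adjusted p = 0.00815). Both were low in all Model_Swim libraries and in Model 3. Krt27 had 8, 7 and 9 counts in Ctrl, 39, 2 and 52 in Ctrl_Swim, 378, 204 and 0 in Model and 7, 16 and 9 in Model_Swim (log2 fold change 4.55 ± 1.39 (SE), adjusted p = 0.0288). Krt73 had 119 counts in Model 1, 69 in Model 2, 11 in Ctrl_Swim 4 and at most 1 elsewhere (adjusted p = 0.0260). Krt75, the keratin of the companion layer between the sheaths, had 82 counts in Model 1, 78 in Model 2, 24 in Ctrl_Swim 4 and at most 5 elsewhere (adjusted p = 0.0255). Ctrl_Swim 2, with 76 counts of Krt71 and 39 of Krt27, was the only other library with more than 20 counts of any of these 5.

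Hair shaft keratins form the hard fibre itself. Krt31 had 0, 0 and 0 counts in Ctrl, 2, 1 and 36 in Ctrl_Swim, 160, 123 and 2 in Model and 0, 0 and 0 in Model_Swim (adjusted p = 0.0325). Krt33a, Krt33b and Krt34, which lie beside Krt31 on chromosome 11, had 166, 161 and 147 counts in Model 1, 143, 207 and 137 in Model 2, 72, 65 and 61 in Ctrl_Swim 4 and at most 1 in every other library. Krt33a and Krt34 were called (adjusted p = 0.0378 and 0.0264 by edgeR) and Krt33b was not (adjusted p = 0.0594). Krt81 had 1, 0 and 0 counts in Ctrl, 1, 1 and 98 in Ctrl_Swim, 262, 209 and 0 in Model and 0, 0 and 0 in Model_Swim (adjusted p = 0.0372). Krt86 and Krt83, its neighbours on chromosome 15, had 250 and 253 counts in Model 1, 185 and 218 in Model 2, 90 and 118 in Ctrl_Swim 4 and at most 11 elsewhere, and both were called (adjusted p = 0.0409 and 0.0151 by edgeR). Krt81 shares 24.4% of its 100-base windows with Krt86, and Krt34 shares 12.3% with Krt31 and 12.98% with Krt33a, so the counts of single genes in these sets are uncertain. Over the hair shaft keratins without Krt36, Krt84 and Krt87, a sum chosen after their values were seen, the level was 28.3 CPM in Ctrl_Swim 4, 84.7 CPM in Model 1, 72.5 CPM in Model 2 and at most 0.691 CPM in the other 9 libraries.

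Krt36, Krt84 and Krt87 are grouped with the hair shaft keratins but were spread over the libraries in another way. Krt36 had 11, 7 and 8 counts in Ctrl, 4, 8 and 14 in Ctrl_Swim, 438, 111 and 10 in Model and 104, 169 and 87 in Model_Swim. It was high in Model 1, Model 2 and all 3 Model_Swim libraries, and near the Ctrl level in Ctrl_Swim 4, where Krt81 had 98 counts. It passed between Model and Ctrl (log2 fold change 4.38 ± 1.02 (SE), adjusted p = 0.00869), called in 18 of 20 alternative fits. Between Model_Swim and Ctrl_Swim it was higher without overlap, as were 15.9% of all genes, and missed the threshold (log2 fold change 3.81 ± 1.01 (SE), adjusted p = 0.0532). Krt84, a hair and tongue papilla keratin, was at 2.87, 1.58 and 1.48 CPM in Ctrl, 1.75, 1.44 and 4.50 CPM in Ctrl_Swim, 15.1, 5.61 and 1.78 CPM in Model and 3.14, 6.74 and 3.76 CPM in Model_Swim and was not called (log2 fold change 1.92 ± 0.69 (SE), adjusted p = 0.0533). Krt87 was at 2.63 to 6.23 CPM in the libraries other than Model 1, with 15.5 CPM, and Model 2, with 14.1 CPM (log2 fold change 1.32 ± 0.49 (SE), adjusted p = 0.0579).

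Promoter sequences of RefSeq on GRCm38.p6, the build of the counts, were found for 36 of the 53 keratins, and the 150 bases before the listed start were searched on both strands. The letters TATAAA, the core of a TATA box, stood in 11 of 17 hair, 2 of 9 squamous and 1 of 4 simple keratin promoters, and in 7.57% of all 32851 promoters. In 9 of the 11 hair genes they began 20 to 40 bases before the start. TGANTCA, the AP-1 motif, stood in 0 of the 36 and in 4.24% of all promoters, and CTTTGA, the core of the TCF/LEF motif, in 5 of 36 and 7.93%. None of these 3 motifs contains another. The sequences below show simple keratins without and with the letters (Krt8, Krt20), the basal keratin Krt5, a root sheath and a hair shaft keratin that moved with the hair set (Krt25, Krt31), and Krt84, which did not. Each is written 5′ to 3′ on the strand of its gene, and capitals mark TATAAA.
Krt8, chr15:102004343-102004492, minus strand: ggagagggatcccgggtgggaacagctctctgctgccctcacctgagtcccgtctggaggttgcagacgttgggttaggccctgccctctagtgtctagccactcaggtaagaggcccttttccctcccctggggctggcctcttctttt
Krt20, chr11:99438154-99438303, minus strand: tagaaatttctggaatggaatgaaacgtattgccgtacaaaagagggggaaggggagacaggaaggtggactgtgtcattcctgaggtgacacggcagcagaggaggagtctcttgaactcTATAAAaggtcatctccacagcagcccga
Krt5, chr15:101712906-101713055, minus strand: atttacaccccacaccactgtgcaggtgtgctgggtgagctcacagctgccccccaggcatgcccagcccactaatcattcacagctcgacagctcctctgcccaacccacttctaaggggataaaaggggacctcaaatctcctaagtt
Krt25, chr11:99322952-99323101, minus strand: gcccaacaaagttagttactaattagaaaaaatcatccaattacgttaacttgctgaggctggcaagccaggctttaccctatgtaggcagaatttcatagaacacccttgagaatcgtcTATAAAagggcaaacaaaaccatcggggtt
Krt31, chr11:100050552-100050701, minus strand: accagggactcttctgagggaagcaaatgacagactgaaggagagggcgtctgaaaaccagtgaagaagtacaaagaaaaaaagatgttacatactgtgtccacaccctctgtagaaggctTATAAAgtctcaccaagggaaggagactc
Krt84, chr15:101532821-101532970, minus strand: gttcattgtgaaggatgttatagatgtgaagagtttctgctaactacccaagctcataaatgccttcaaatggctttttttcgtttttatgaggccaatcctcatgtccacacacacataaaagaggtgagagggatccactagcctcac
A match of letters is a description and not a binding site. The sequences are chosen examples, and whether TATAAA goes with the level of a hair keratin was not tested.

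The 9 keratins placed on neither side went several ways. Krt90 had 4, 4 and 2 counts in Ctrl, 3, 1 and 4 in Ctrl_Swim, 80, 16 and 5 in Model and 15, 44 and 45 in Model_Swim. It was above Ctrl in Model 1, Model 2 and all Model_Swim libraries and low in Ctrl_Swim 4 (log2 fold change 3.27 ± 0.93 (SE), adjusted p = 0.0213), and between Model_Swim and Ctrl_Swim it just missed the threshold (log2 fold change 3.67 ± 0.96 (SE), adjusted p = 0.0511). Krt79, known from the hair canal and sebaceous duct, was at 0.221, 0.545 and 0.275 CPM in Ctrl, 8.05, 0.106 and 68.2 CPM in Ctrl_Swim, 55.2, 53.3 and 0.287 CPM in Model and 5.72, 119 and 1.11 CPM in Model_Swim, with its highest value in Model_Swim 2 and the Ctrl level in Model 3 (log2 fold change 6.68 ± 2.54 (SE), adjusted p = 0.0640). Krt23 was at 9.88, 10.1 and 9.62 CPM in Ctrl, 10.2, 9.999 and 10.5 CPM in Ctrl_Swim, 49.5, 15.3 and 7.68 CPM in Model and 17.2, 19.7 and 21.99 CPM in Model_Swim, and all Model_Swim libraries lay above all Ctrl_Swim libraries (log2 fold change 0.94 ± 0.49 (SE), adjusted p = 0.288). Krt80, found at desmosomes, was at 3.75, 2.73 and 3.74 CPM in Ctrl, 4.16, 1.91 and 14.6 CPM in Ctrl_Swim, 16.4, 15.6 and 4.47 CPM in Model and 5.89, 13.1 and 7.68 CPM in Model_Swim, without overlap between Model and Ctrl but not called (log2 fold change 1.84 ± 0.68 (SE), adjusted p = 0.0573). Krt222 was between 1.02 and 2.34 CPM in all libraries (log2 fold change -0.37 ± 0.29 (SE), adjusted p = 0.343). The cornea keratin Krt12 was below 1 CPM on average and, together with Krt24, Krt42 and Krt88, never exceeded 41 counts.

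Of the 14 keratins that failed the filter, 8 were hair, 3 squamous and 3 other keratins. Krt26, Krt28, Krt32, Krt35, Krt39, Krt40, Krt72 and Krt82, all of them hair keratins, were each highest in Model 1, with 8 to 98 counts there and at most 2 in any Ctrl library. Krt9, of palms and soles, Krt76, of the palate, Krt24, Krt42 and Krt88 had between 3 and 15 counts over all 12 libraries. Krt2 is given above.

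**Figure D4:**
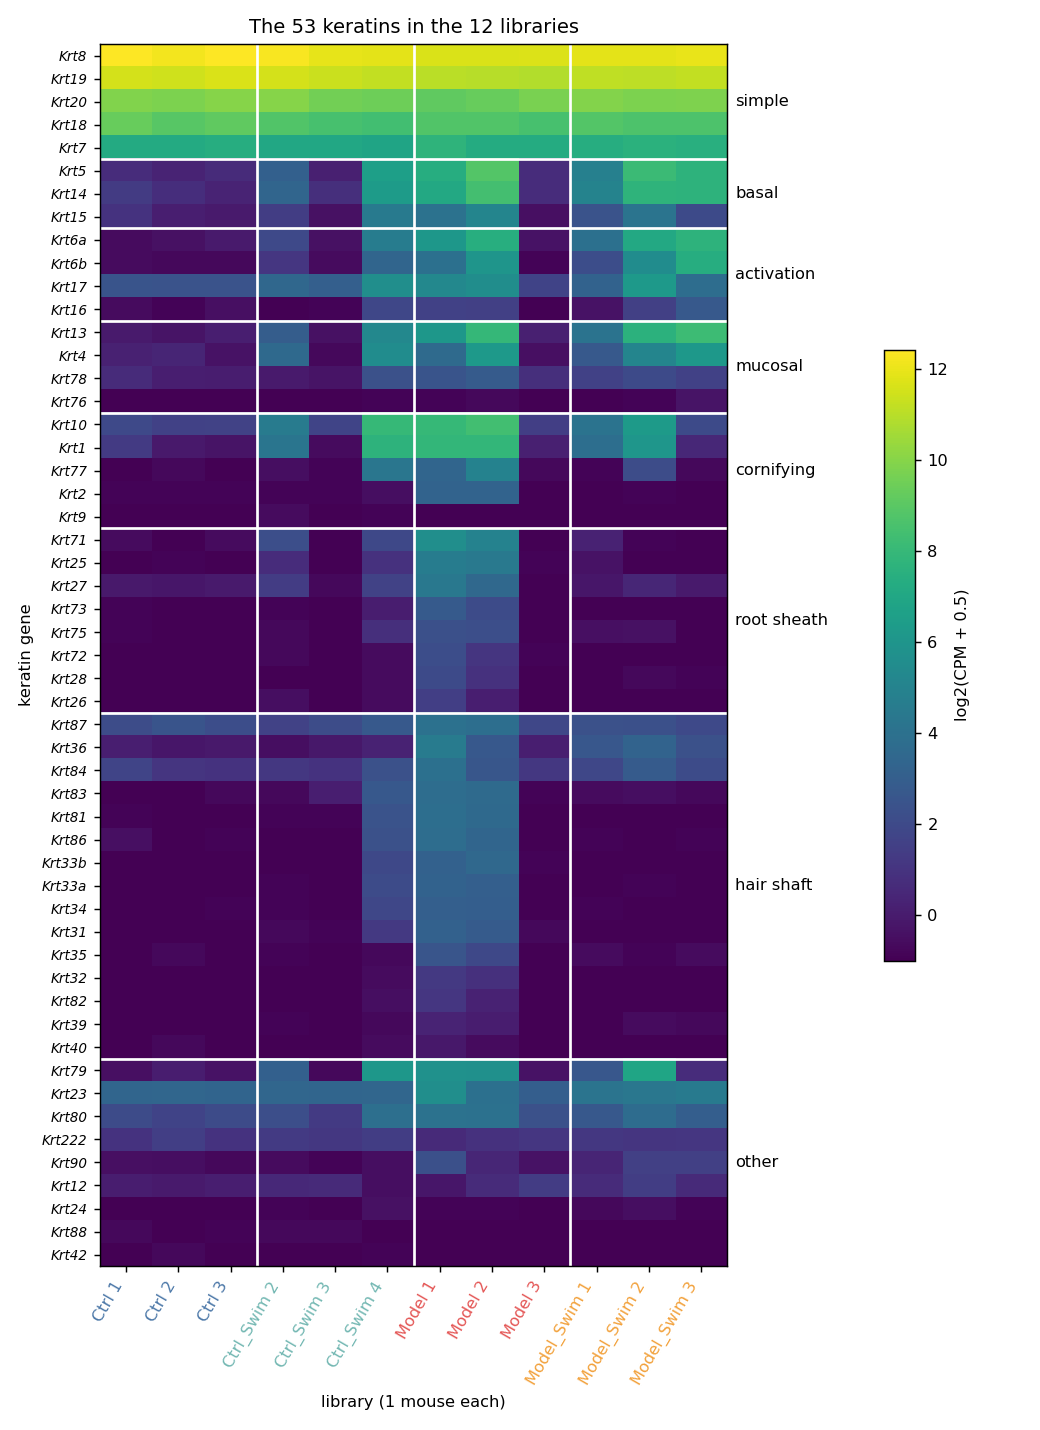
Level of each of the 53 keratins, as log2(CPM + 0.5), in each of the 12 libraries (columns, 1 mouse each, ordered by group), with rows ordered by class and by mean CPM within a class. Simple keratins are high throughout, the squamous block is high in Ctrl_Swim 4, Model 1, Model 2, Model_Swim 2 and Model_Swim 3, and the hair block in Model 1, Model 2 and, more weakly, Ctrl_Swim 4.

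The comparisons that involve swimming made 0 calls among the keratins by edgeR. Between Model_Swim and Model, where 0.071% of all genes were called, 14 of 39 keratins had an unadjusted p under 0.05, against 13.6% of all genes, which were 13 hair keratins, each lower in Model_Swim, and Krt20. Krt31 had 160, 123 and 2 counts in Model and 0 in all Model_Swim libraries (adjusted p = 0.235), and Krt71 had 935, 562 and 0 against 13, 1 and 0 (adjusted p = 0.191). The limit from the filter, given above, holds for the hair keratins here too. The squamous keratins had a median log2 fold change of -0.11, against -0.01 over all genes. DESeq2 called 4 lower (Krt2, Krt31, Krt72 and Krt83), with 115 genes called over the whole table. Without Model 3, edgeR called 18 lower, which were Krt2 and 17 hair keratins, and without Model 1 and Model 3 together 8 lower. In both fits 47 keratins were tested, and 327 and 214 genes were called over the whole table, against 11 with all libraries. With the squamous partner genes as a covariate 6 were lower, with 57 genes called over the whole table. With the replicate block 1 was, Krt25, with 22 genes called.

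Between Ctrl_Swim and Ctrl, where 0.168% of all genes were called, 14 of 39 keratins had an unadjusted p under 0.05, against 17.6% of all genes. In the 10 of them that were squamous or hair keratins Ctrl_Swim 4 was the highest library of both groups. The 7 squamous members were next highest in Ctrl_Swim 2, from 4 counts of Krt77 to 426 of Krt10. Of the 3 hair members, Krt33a and Krt34 had 1 count each in Ctrl_Swim 2 and 0 in Ctrl_Swim 3, while Krt83 had 2 and 11 counts there and at most 2 in Ctrl. DESeq2 called 7 higher (Krt1, Krt5, Krt10, Krt13, Krt77, Krt79 and Krt83), with 76 genes called over the whole table. Krt10, for instance, was not called by edgeR (log2 fold change 5.05 ± 1.88 (SE), adjusted p = 0.214).

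Between Model_Swim and Ctrl_Swim, where 1% of all genes were called, 10 of 39 keratins had an unadjusted p under 0.05, against 22.4% of all genes. DESeq2 and the fit of these 6 libraries alone both called Krt36 and Krt90 higher, with 274 and 272 genes called over the whole table. So did edgeR without Model 1 or without Model 3, with 230 and 274 genes called. Without Model 2 it called Krt90, with 161 genes called. Without Model 1 and Model 3 together, Krt6a, Krt6b, Krt36 and Krt90 were called. That fit left Model 2 as the only Model library, and more genes were called over the whole table than with all libraries. With the squamous partner genes as a covariate 2 were higher and 8 lower, with 161 genes called over the whole table. In the test of whether the effect of swimming differed between AOM/DSS and untreated mice, 0 of 39 keratins and 0% of all genes were called, and 19 keratins had an unadjusted p under 0.05, against 19% of all genes. DESeq2 called 10 keratins there, with 213 genes called over the whole table. By edgeR, 15 keratins were called without Model 3, with 248 genes called over the whole table. Without Ctrl_Swim 2 it called 1 keratin, Krt83, with 62 genes called. Each of these keratins had a negative log2 value in this test, that is, a lower swimming effect in AOM/DSS mice than in untreated mice.

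Genes that work with the squamous keratins moved in the same libraries. Squamous desmosomes, adhesion and regulation were followed with 13 genes, of which 12 were tested and 8 rose in Model against Ctrl, where 6.21% of all genes were called higher. The 3 most abundant, Perp, Sfn and Pkp1, did not pass (Perp 254 to 274 CPM in Ctrl and 221 to 309 CPM in Model). Trp63, the transcription factor that defines stratified epithelium, was at 0.110, 0.164 and 0.110 CPM in Ctrl, 0.822, 0 and 9.50 CPM in Ctrl_Swim, 13.5, 30.8 and 0.0573 CPM in Model and 2.31, 19.9 and 15.3 CPM in Model_Swim (adjusted p = 0.0291). Dsg3, a desmoglein of squamous cells, was at 0, 0.0545 and 0.165 CPM in Ctrl, 1.15, 0 and 11.2 CPM in Ctrl_Swim, 13.3, 31.3 and 0.344 CPM in Model and 1.38, 27.5 and 29.99 CPM in Model_Swim (adjusted p = 0.0290). Both were high in the libraries with high Krt5 and near 0 in Model 3. With Ctrl means raised to the 3-count limit, the median log2 ratio over the 12 genes was 4.56, 5 of them raised. Genes such as Trp63 and Dsg3, at 0.165 CPM or lower in Ctrl, passed the filter only through libraries where they were high. The share of tested partner genes that was called is thus partly set by the filter.

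The cornified envelope, the protein shell of dead surface cells, was followed with 20 genes, of which 19 were tested and 10 rose in Model against Ctrl, beside the same 6.21% of all genes. The median log2 ratio over the 19 was 4.11 when 6 of them were raised to the 3-count limit. Those 6 passed the filter only through libraries of other groups than Ctrl, so the share called is partly set by the filter here too. Krtdap, Flg and Calm4 had their highest values in Ctrl_Swim 4, Model 2 and Ctrl_Swim 4, and Flg, the precursor of filaggrin, was at 0.828, 0 and 0.110 CPM in Ctrl, 3.40, 0.0532 and 37.7 CPM in Ctrl_Swim, 38.3, 41.1 and 0.115 CPM in Model and 5.67, 15.6 and 0.689 CPM in Model_Swim (log2 fold change 6.38 ± 2.19, adjusted p = 0.0449). Like Krt1 and Krt10, Flg was low in Model_Swim 3. Tgm3, Evpl and Ppl, the most abundant of the list, did not pass, and Tgm3 was between 137 and 414 CPM in Ctrl.

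Keratin-associated proteins, which crosslink the keratins of the hair shaft, were listed as 54 Krtap genes, of which 24 were tested and 7 rose between Model and Ctrl, again beside 6.21% of all genes. Their summed level was 0.773, 0.327 and 0.440 CPM in Ctrl, 1.10, 0.319 and 62.4 CPM in Ctrl_Swim, 175, 105 and 0.803 CPM in Model and 1.43, 1.47 and 0.636 CPM in Model_Swim. The same 3 libraries that were high in hair shaft keratins were high here, and every other library was at 1.47 CPM or lower. The tested Krtap genes thus passed the filter largely through these 3 libraries. Krtap8-1 and Krtap7-1 were the most abundant, with 16.5 and 16.6 CPM in Model 1.

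In the partners of the simple keratins little moved, with 0 of 11 genes called between Model and Ctrl and 1, Vil1, lower by the adjusted p-value alone (log2 fold change -0.49 ± 0.09, adjusted p = 0.00359). Vil1 encodes villin of the brush border. Dsp, the desmosomal protein that anchors keratins in simple and squamous cells, was between 703 and 1022 CPM in all libraries. Of 11 other intermediate filament genes 0 were called. By the adjusted p-value alone 2 were higher, Vim, the filament of mesenchymal cells (log2 fold change 0.50 ± 0.09, adjusted p = 0.00305), and Nes, or nestin (0.60 ± 0.17, adjusted p = 0.0206), where 16.5% of all genes were higher by that measure. Gfap, the filament of glia, was lower by it (log2 fold change -0.63 ± 0.20, adjusted p = 0.0321), as were 16.2% of all genes.

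Markers of other tissues were read beside these results. All 12 tested pancreatic acinar genes were called higher in Model than in Ctrl, where 6.21% of all genes tested were called higher and 1.22% lower. The sum of the acinar list was 183 CPM in Model 2, the library with the most squamous keratin, and 23516 CPM in Model 3, where squamous keratins summed to 10.9 CPM. The 12 colon epithelium markers summed to 6963, 8518 and 11987 CPM in Model and to 13014 CPM or more in every other library. Of these markers 0 were called and 5 were lower by the adjusted p-value alone, against 16.2% of all genes. The 6 distal markers summed to 271, 258 and 28.8 CPM in Model, to 121 to 182 CPM in Ctrl, to 89.2 to 192 CPM in Ctrl_Swim and to 113 to 145 CPM in Model_Swim, and 0 of 6 were called. Model 3 was thus lowest in distal markers and in squamous keratins alike, while Ctrl_Swim 4, the next lowest in distal markers with 89.2 CPM, was high in squamous keratins. The part of position along the bowel in the squamous and hair keratins was not tested, and that of the acinar genes was looked at only through the covariate and the left-out libraries given above. Of 4 mesothelial markers 1, Msln, was called, with sums of 2.45 to 21.2 CPM over the libraries. The 2 tested urothelial markers were not called, the sum of 4 was 10.1 to 15.8 CPM, and Upk2 was at 0.214 CPM or lower in all libraries.

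Type I and type II keratins kept pace with each other within the squamous and hair set as well. Summed over its members, the ratio of type I to type II FPKM was 1.04 to 1.38 in the 7 libraries whose squamous sum exceeded Ctrl, and 1.21 to 2.12 in the other 5, where few counts stand behind it. By family, 28 of the 53 are type I and 25 type II. They lie in 2 clusters, 27 genes on chromosome 11 between 99232761 and 100269951 and 26 on chromosome 15 between 101348315 and 102032026 (GRCm38.p6). Krt18, a type I gene, is the one that lies in the chromosome 15 cluster with the type II genes, next to Krt8. The simple keratins sit in the same clusters as the others, with Krt19 at 100140810 to 100145926 between Krt15 and Krt9 on chromosome 11, so that neighbours in a cluster could be high and near 0 in the same library.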

How the data were processed

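RNA from mouse colorectal tissue was sequenced, 1 library per mouse, 3 mice in each of 4 groups. The deposited counts are raw, whole reads per gene from HTSeq-count, after trimming by Trimmomatic and alignment by HISAT2 to GRCm38.p6. The authors also deposited FPKM values from Cufflinks, which were used here only to compare levels between genes. Tool versions, the gene annotation and the strand setting of the counting are not given in the sources used here, so reads of overlapping genes on opposite strands cannot be told apart. The labels name a different RNA extraction kit from the methods.

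Counts were scaled by TMM and tested with edgeR's quasi-likelihood test (edgeR 4.0.16, limma 3.58.1, R 4.3.3) in 1 fit of all 12 libraries, after filterByExpr with a minimum count of 10, which kept 15484 of 18514 genes. P-values were adjusted by Benjamini-Hochberg over all genes tested. Calls used the study's cutoffs, which were 0.05 for the adjusted p and a fold change above 2 or below 0.5. The fit was tested on simulated counts with the same planted change in all Model libraries. This does not cover keratins high in only some of them. P-values measure the spread between mice. Depth was 17256953 to 19451055 counts per library.

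The text names the 5 simple keratins, every keratin called in any comparison and every other keratin with a mean of at least 1 CPM, and gives the rest by counts and ranges. From the partner and marker lists it names the 3 most abundant genes and called genes with the largest changes. Members, classes and lists were chosen with earlier results of these data known. Alternatives were DESeq2 (1.42.0), DESeq2 size factors in edgeR, no filter on low counts, a replicate block, the acinar list as a covariate, the fit of 2 groups alone, calls by adjusted p alone and leaving out each library. A squamous partner covariate and leaving out Model 1 and Model 3 together were added after seeing the data. Figures were drawn with matplotlib 3.10.9 in Python 3.11.15.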

Additional observations from a re-analysis of the deposited data

How the results depend on the processing

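Between Model and Ctrl, the 23 calls became 13 with the acinar covariate, 0 with the squamous partner covariate, 8 with only the 2 groups compared and 3 to 39 when single libraries were left out; DESeq2 gave 30, no filter 27, adjusted p alone 27 and leaving out Model 1 and Model 3 together 32. Between Model_Swim and Model, the 0 calls became 6 with the squamous partner covariate, 8 without Model 1 and Model 3 together, 4 by DESeq2 and 0 to 18 without single libraries. Between Ctrl_Swim and Ctrl, DESeq2 made 7 calls in place of 0. Between Model_Swim and Ctrl_Swim, the 0 calls became 10 with the squamous partner covariate, 4 without Model 1 and Model 3 together, 2 with only the 2 groups compared, 2 by DESeq2, 1 by adjusted p alone and 0 to 2 without single libraries. The test of the difference in the swimming effect gave 10 by DESeq2 and 0 to 15 without single libraries, in place of 0. It also made calls without Model 1 and Model 3 together, among the keratins and over the whole table, with Model 2 as the only Model library. Fewer genes or samples were tested in some of these fits, and the calls over the whole table changed too. Between Model and Ctrl, 1181 genes were called with no filter and 5066 by the adjusted p-value alone, against 1150. The cause was otherwise not tested. With the squamous partner covariate, 7 called log2 fold changes between Model and Ctrl reversed, to -0.047 for Krt10, -0.15 for Krt27, -0.58 for Krt34, -0.66 for Krt4, -1.79 for Krt77, -0.13 for Krt81 and -2.98 for Krt86; Krt15, Krt16, Krt17, Krt79 and Krt80, which were not called, also turned negative. Since this covariate takes up the squamous signal itself, these changes of sign do not measure the effect of AOM and DSS. In FPKM the Ctrl log2 ratio of squamous and hair to simple keratins was -9.09.

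The labels number libraries within groups, but the numbers did not pair them, since deviations of same-numbered libraries correlated at -0.258 to 0.563 over 15 pairs, 4 of them over 0.1, and 3 of 12 libraries correlated best with their own number. With the replicate block, Model against Ctrl gave 24 calls, 20 of them among the 23, with 1109 genes called over the whole table. Model_Swim against Model gave 1, Krt25. Over single keratins and all alternatives, 3433 values stayed on their side of the threshold, of which 145, called in neither fit, changed sign; 144 lost the call, 120 gained one and 7 called values changed sign. At 17256953 counts, 3 counts were 0.172 CPM, so hair keratins at 0 in Ctrl have no measured fold change.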
